A study of Homo sapiens with 9 samples.

Results

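UGT2B17, UGT2B15, UGT2B11, UGT2B28, UGT2B7, UGT2B10 and UGT2B4 are the UGT2B genes of the human chromosome 4 cluster. They encode UDP-glucuronosyltransferases, enzymes of the endoplasmic reticulum that join glucuronic acid to steroids, bile acids and drugs. The 7 genes were found among the 60675 genes of the count files by their Ensembl identifiers. They were chosen by the log2 fold change of UGT2B17 in the cells with shMETTL3 guide 2, so values from that contrast are a description and carry no test. All 7 passed the filter on low counts.

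The RNA-seq libraries were made from LNCaP:C4-2 cells (labelled LNCaP:C42), a castrate-resistant, enzalutamide-sensitive prostate cancer (PCa) cell line. The 3 groups of 3 libraries were a non-targeting shScramble control, shMETTL3 guide 2 and shMETTL3 guide 1. METTL3 is the catalytic subunit of the complex that writes N6-methyladenosine (m6A) on mRNA. Every group carried a doxycycline-inducible lentiviral hairpin, was selected as stable puromycin-resistant clones, and was grown in phenol red-free medium with charcoal-stripped serum, which is depleted of steroids. The treatment protocol gives 1 µg/ml doxycycline for 6 days, whereas the titles name a vehicle. Nothing states how many clones a group held, or that the libraries of a group were separate cultures, so p-values measure the spread between these libraries, which may be technical.

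Total counts per library lay between 21899501 and 30897639. The guide 2 libraries stood apart, with 24884 to 26505 genes detected and 3.78% to 4.92% mitochondrial counts, against 28459 to 29586 genes and 5.96% to 6.34% with shScramble, and 29193 to 29628 genes and 5.08% to 5.30% in the libraries labelled guide 1. The part of these differences in the results below was not tested. METTL3 had counts of 922, 1010 and 753 in the shScramble libraries and 382, 415 and 349 with guide 2. The libraries labelled guide 1 had 837, 837 and 886 METTL3 counts, so the target's RNA was not lowered there as the label says. The log2 fold change was -0.08 (adjusted p = 0.251, quasi-likelihood F test in edgeR, Benjamini-Hochberg adjusted). These counts do not show METTL3 protein. That group is called by its label throughout, and no direction in it is read as one of METTL3 depletion.

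In the prostate, glucuronidation ends the action of androgens. Testosterone is reduced to dihydrotestosterone, which is converted in turn to androsterone and androstane-3α,17β-diol, and these C19 steroids are made water-soluble by a glucuronide. UGT2B17 and UGT2B15 are the main enzymes of this step in prostate cells. UGT2B17 acts at the 3-hydroxyl and 17-hydroxyl positions of androgens and UGT2B15 chiefly at the 17-hydroxyl. UGT2B28 also takes androgens, UGT2B7 takes androgens, oestrogens and many drugs, UGT2B4 conjugates bile acids, and UGT2B10 is best known for N-glucuronidation of amine drugs such as nicotine.

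The coding sequences of these genes are close copies, which bears on every count below. In the reference transcripts (GENCODE, GRCh38), UGT2B17 and UGT2B15 differed at 55 of 1590 aligned coding bases (96.54% identity), and their longest identical run was 199 bases. UGT2B11 and UGT2B28 differed at 47 of 1587 (97.04% identity), and UGT2B11 and UGT2B10 were 95.01% identical. UGT2B17 was 84.12% to 85.61% identical to the members other than UGT2B15. The stretch in which UGT2B17 and UGT2B15 differ most is shown here because reads from it can be told apart. It covers coding bases 356 to 435 of UGT2B17 (chr4:68568050-68568129, minus strand), within one exon. Capitals mark bases that differ from UGT2B17, of which UGT2B15 has 10, UGT2B11, UGT2B28, UGT2B7 and UGT2B10 have 19 each, and UGT2B4 has 22.
UGT2B17: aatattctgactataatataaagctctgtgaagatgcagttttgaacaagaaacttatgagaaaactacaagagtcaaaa
UGT2B15: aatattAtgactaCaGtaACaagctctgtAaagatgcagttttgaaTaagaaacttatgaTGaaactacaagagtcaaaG
UGT2B11: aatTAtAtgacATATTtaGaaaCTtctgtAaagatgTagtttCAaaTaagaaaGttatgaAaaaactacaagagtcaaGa
UGT2B28: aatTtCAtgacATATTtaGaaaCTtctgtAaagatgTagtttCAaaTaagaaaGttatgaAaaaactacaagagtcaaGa
UGT2B7: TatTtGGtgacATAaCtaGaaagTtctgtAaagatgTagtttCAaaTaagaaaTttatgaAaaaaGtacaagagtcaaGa
UGT2B10: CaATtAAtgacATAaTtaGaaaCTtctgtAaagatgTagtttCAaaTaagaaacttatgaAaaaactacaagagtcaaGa
UGT2B4: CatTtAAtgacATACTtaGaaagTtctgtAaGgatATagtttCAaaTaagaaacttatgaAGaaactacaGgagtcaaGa

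Outside such stretches a read may match more than one copy. Of the 100-base words of the UGT2B17 transcript, 252 of 2382 (10.58%) were also found in UGT2B15 and in no other gene. The share was 12.38% for UGT2B15, 9.22% for UGT2B11, 5.63% for UGT2B28 and 4.55% for UGT2B10, and no such word of UGT2B7 or UGT2B4 occurred in another gene. The authors' annotation adds overlaps of its own, since its UGT2B15 gene reaches across UGT2B17 on the same strand and both share 114 exon bases. UGT2B28 shares 19.19% of its exon bases with the pseudogene UGT2B25P, and UGT2B11 shares 16.88% with a gene on the opposite strand. How multi-mapping reads were counted, and whether strand was used, is not given in the sources used here, so the split among the near-identical copies is uncertain. The summed UGT2B count is given below for that reason.

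UGT2B17 (ENSG00000197888, chr4:68537184-68568527, minus strand) was expressed at 7.51, 5.18 and 7.36 CPM (counts scaled by TMM to a common library size) in the shScramble libraries, from 232, 165 and 168 counts. With guide 2 it stood at 55.5, 54.6 and 60.0 CPM, from 1280, 1369 and 1323 counts. The libraries labelled guide 1 gave 4.25, 3.74 and 2.81 CPM, from 121, 104 and 84 counts. The 3 groups did not overlap, with guide 2 highest and guide 1 lowest. The guide 2 mean was 8.54-fold the shScramble mean (log2 fold change 3.09, SE 0.111), the largest rise of the 7 genes. Against shScramble, UGT2B17 fell in the libraries labelled guide 1 by 0.88 on the log2 scale (SE 0.150, adjusted p = 2.8e-05, quasi-likelihood F test in edgeR, Benjamini-Hochberg adjusted over 19278 genes).

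**Figure D1:**
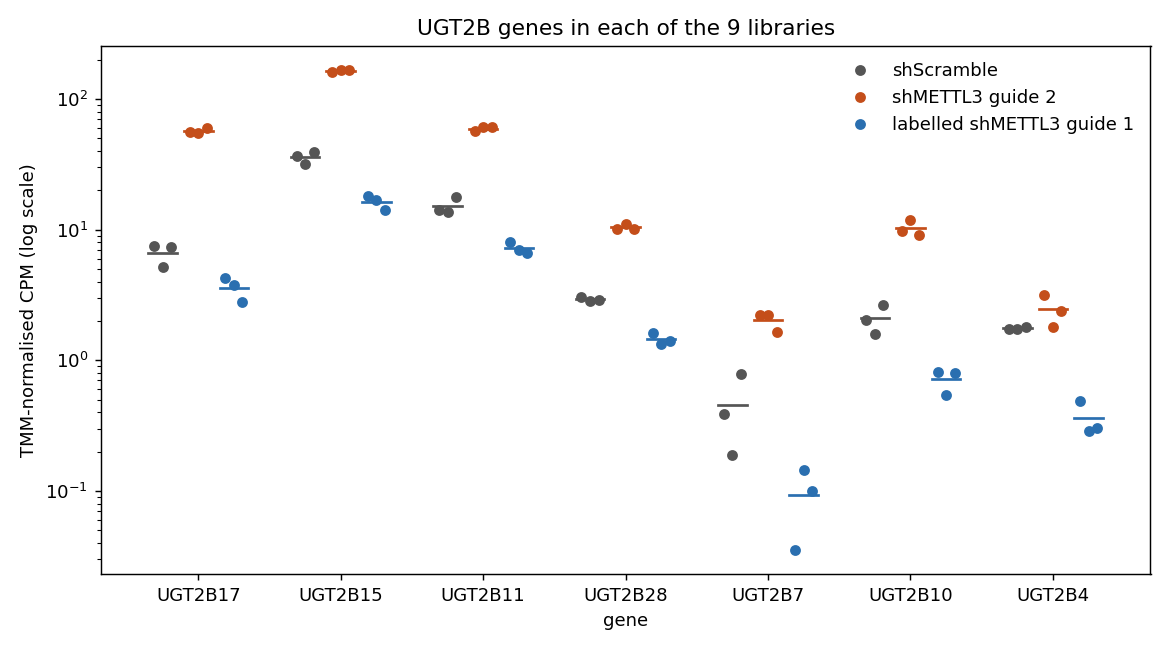
TMM-normalised CPM (y axis, log scale) of the 7 UGT2B genes (x axis), with 1 point per library and a bar at the mean of each group of 3. For 6 genes every guide 2 point lies above the shScramble points, for UGT2B4 they overlap, and for all 7 the points labelled guide 1 lie below those of shScramble.

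UGT2B15 (ENSG00000196620, chr4:68537413-68670628, minus strand) was the most abundant member in every library. Its level was 36.5, 32.0 and 39.6 CPM with shScramble, 161, 167 and 167 CPM with guide 2, and 18.0, 17.0 and 14.2 CPM in the libraries labelled guide 1. Again no groups overlapped. The log2 fold change was 2.20 with guide 2 (SE 0.0697, 4.599-fold) and -1.13 with guide 1 (SE 0.0796, adjusted p = 5.1e-11, quasi-likelihood F test in edgeR, Benjamini-Hochberg adjusted).

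UGT2B11 (ENSG00000213759, chr4:69004618-69214731, minus strand) and UGT2B28 (ENSG00000135226, chr4:69280487-69423402, plus strand) are the closest pair by coding sequence. UGT2B11 had 14.0, 13.6 and 17.7 CPM with shScramble, 56.7, 61.2 and 60.6 CPM with guide 2, and 8.11, 6.95 and 6.59 CPM in the libraries labelled guide 1. UGT2B28 had 95, 91 and 66 counts, then 233, 276 and 222, then 46, 37 and 42 counts, in the same order of groups, with means of 2.94 ± 0.116, 10.4 ± 0.533 and 1.45 ± 0.147 CPM (SD, n = 3). The groups were separate for both genes. With guide 2 the log2 fold changes were 1.99 (SE 0.0820) and 1.82 (SE 0.131). With guide 1 both genes fell, by 1.06 on the log2 scale for UGT2B11 (adjusted p = 3.6e-10) and by 1.02 for UGT2B28 (adjusted p = 5.7e-06, same edgeR test).

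UGT2B10 (ENSG00000109181, chr4:68815993-68831196, plus strand) had 63, 51 and 61 counts with shScramble, 224, 300 and 202 with guide 2, and 23, 15 and 24 in the libraries labelled guide 1. The groups were apart here too, at means of 2.10 ± 0.539, 10.3 ± 1.49 and 0.717 ± 0.153 CPM (SD, n = 3). The log2 fold change was 2.32 with guide 2 (SE 0.169, 4.98-fold). It was -1.51 with guide 1 (SE 0.246, adjusted p = 4.3e-06, same edgeR test).

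UGT2B7 (ENSG00000171234, chr4:69051363-69112987, plus strand), which lies within the annotated bounds of UGT2B11 on the other strand and shares no exon bases with it, was the least abundant member in each group. It had 12, 6 and 18 counts with shScramble, 51, 56 and 36 with guide 2, and 1, 4 and 3 in the libraries labelled guide 1. All 3 guide 2 libraries, 2 of 3 shScramble libraries and 0 of 3 libraries labelled guide 1 reached the level that the filter on low counts asks for, so UGT2B7 passed through the group in which it was high. In CPM the group means were 0.455 ± 0.306, 2.03 ± 0.341 and 0.0932 ± 0.0548 (SD, n = 3). The log2 fold change was 2.23 with guide 2 (SE 0.362). With guide 1 it was -2.15 (SE 0.600, 95% confidence interval -3.33 to -0.98), given as a description because of that filter.

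UGT2B4 (ENSG00000156096, chr4:69480165-69526014, minus strand) was the member that did not separate with guide 2. Its shScramble libraries lay close together at 1.75, 1.73 and 1.80 CPM, and guide 2 gave 3.16, 1.79 and 2.40 CPM, so that the lowest guide 2 library fell within the shScramble range. The guide 2 log2 fold change was 0.48 (SE 0.232, 1.39-fold). In the libraries labelled guide 1 it stood at 0.492, 0.288 and 0.301 CPM, from 14, 8 and 9 counts, and all were below the shScramble libraries. The log2 fold change was -2.27 (SE 0.307, 95% confidence interval -2.87 to -1.67, adjusted p = 2.2e-07, same edgeR test). Whether UGT2B4 fell further than UGT2B17, whose interval was -1.18 to -0.59, was not tested.

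As a family, 6 of the 7 genes were past 1.5-fold higher with guide 2, where 9.88% of the 19278 tested genes were. The median log2 fold change was 2.20 for the 7 genes and -0.04 for all tested genes, but this contrast chose the genes and nothing is read from the count. Every guide 2 library was above every shScramble library for the same number of members (32.5% of tested genes). In the libraries labelled guide 1, 7 of 7 genes were called lower and none higher, at an adjusted p under 0.05 and 1.5-fold by edgeR's quasi-likelihood test, where 16.5% of tested genes were called lower. One of them was UGT2B7, which passed the filter only through guide 2, and 6 were called when only the 6 libraries compared were fitted. For all 7, each library labelled guide 1 was below each shScramble library (34.5% of tested genes). The median log2 fold change there was -1.13 for the 7 genes and -0.02 for all tested genes. Both contrasts use the same shScramble libraries. Genes with all guide 2 libraries above and all libraries labelled guide 1 below the shScramble libraries made up 12.5% of tested genes. Set directly against guide 1, guide 2 was higher by log2 differences between 2.75 for UGT2B4 and 4.38 for UGT2B7, with no test since guide 2 chose the genes.

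**Figure D2:**
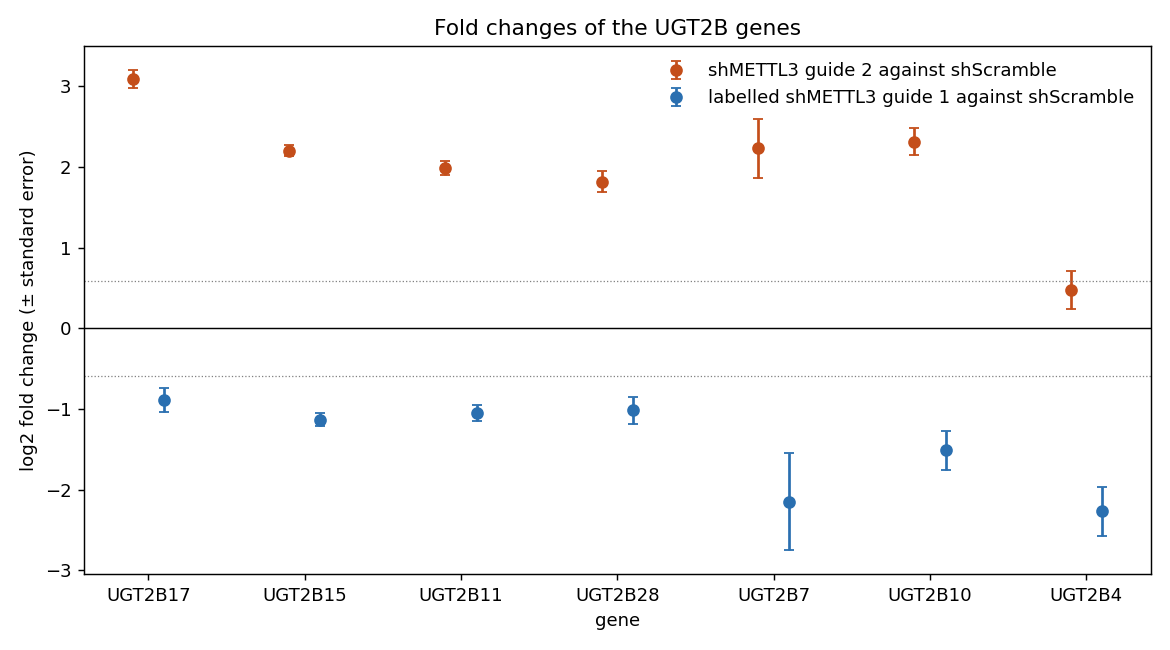
Log2 fold change against shScramble (y axis) of the 7 UGT2B genes (x axis) for guide 2 and for the libraries labelled guide 1, with standard errors as bars and the 1.5-fold limits dotted. UGT2B17 is highest with guide 2 at 3.09, UGT2B4 alone stays within the dotted lines at 0.48, and all 7 guide 1 values lie between -2.27 and -0.88.

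The summed count of the 7 genes does not depend on how counted reads were divided among them, although reads that the counting left out are missing from it. The sum was 65.1 ± 7.80 CPM with shScramble, 306 ± 6.96 CPM with guide 2 and 29.8 ± 3.55 CPM in the libraries labelled guide 1 (SD, n = 3). That is 4.71-fold higher with guide 2 and 2.18-fold lower with guide 1, given without a test. The summed level thus moved in the direction of the single genes in both groups.

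Within the sum, UGT2B17 took a larger part with guide 2. Its share of the UGT2B counts was 11.5%, 9.06% and 10.1% in the shScramble libraries, 18.6%, 17.6% and 19.3% with guide 2, and 12.7%, 12.5% and 10.7% in the libraries labelled guide 1. Guide 2 stood apart, while shScramble and guide 1 overlapped. The share of UGT2B15 was near constant, at 55.4% ± 0.903, 53.9% ± 0.118 and 55.0% ± 1.43 (SD, n = 3) in the same order. The ratio of UGT2B17 to UGT2B15 counts was 0.206, 0.162 and 0.186 with shScramble, 0.345, 0.327 and 0.359 with guide 2, and 0.236, 0.221 and 0.198 with guide 1. UGT2B11 made up 23.2% ± 1.505, 19.4% ± 0.379 and 24.2% ± 0.971. UGT2B4 went from 2.72% ± 0.279 with shScramble to 0.804% ± 0.242 with guide 2 and 1.19% ± 0.260 with guide 1.

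**Figure D3:**
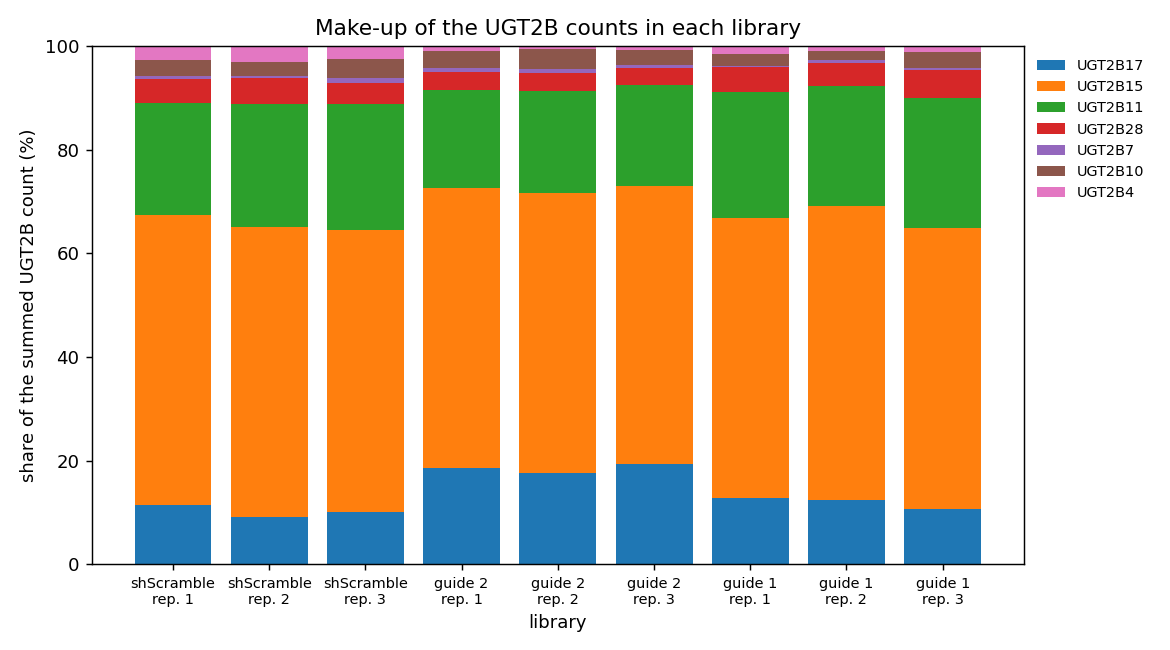
Share of the summed UGT2B count (y axis, %) taken by each of the 7 genes in each of the 9 libraries (x axis). UGT2B15 is the largest segment of every bar, and the UGT2B17 segment is 17.6% to 19.3% in the guide 2 libraries and 9.06% to 12.7% in the others.

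Per kilobase of annotated exon (RPKM, from the CPM and the exon length in the files), the order of levels in shScramble was UGT2B15 (16.4 RPKM), UGT2B11 (6.11), UGT2B17 (3.22), UGT2B28 (1.13), UGT2B10 (1.09), UGT2B4 (0.706) and UGT2B7 (0.201). Only UGT2B28 and UGT2B10 overlapped among neighbours in this order. With guide 2, UGT2B17 passed UGT2B11, at 26.3 to 28.9 RPKM against 22.9 to 24.7 RPKM, and UGT2B10 passed UGT2B28, at 4.74 to 6.19 against 3.88 to 4.24 RPKM. UGT2B4 and UGT2B7, the lowest pair with guide 2, overlapped at 0.986 and 0.896 RPKM. In the libraries labelled guide 1 the order was that of shScramble, from 7.48 RPKM for UGT2B15 to 0.0412 RPKM for UGT2B7, and no neighbours overlapped.

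The neighbourhood of the cluster on chromosome 4 was then examined, within 1000000 bases of the first and last member. Of 39 other genes between the members, 3 had 10 or more counts in any library. One of them, the pseudogene UGT2B27P, which lies inside the annotated bounds of UGT2B11, had 16, 9 and 13 counts with shScramble, 21, 26 and 20 with guide 2, and 5, 3 and 8 with guide 1. Its log2 fold change was 1.08 with guide 2 and -1.25 with guide 1, on few counts and as a close copy of the members. These values are a description, because UGT2B27P passed the filter on low counts through the guide 2 libraries. The other 2, ENSG00000248635 and ENSG00000250696, had at most 12 and 13 counts and were not tested.

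Of the 54 flanking genes, 8 had 10 or more counts in a library and 7 were tested. TMPRSS11E, a serine protease gene whose lowest coordinate lies 89.7 kb below that of UGT2B17, had 35, 15 and 15 counts with shScramble, 50, 45 and 26 with guide 2, and 12, 9 and 7 with guide 1. It rose with guide 2 (log2 fold change 1.18, adjusted p = 0.0027) and fell with guide 1 (-1.21, adjusted p = 0.011, same edgeR test). The next tested gene on that side, YTHDC1, which encodes a nuclear m6A reader, was at 89.5 ± 1.84 CPM with shScramble and had log2 fold changes of -0.07 with guide 2 and 0.30 with guide 1, neither past 1.5-fold. UBA6, an E1 enzyme gene for ubiquitin, stood at 0.03 with guide 2 and rose by 0.64 with guide 1. CENPC, a centromere protein gene, stood at -0.23 with guide 2 and rose by 1.17 with guide 1. On the other side, ODAM had log2 fold changes of 1.10 with guide 2, where it was not called, and -1.60 with guide 1, on at most 17 counts in a library. It too passed the filter through the guide 2 libraries, so these values are a description. UBA6-DT and ENSG00000270228 passed neither test. Beyond the cluster, then, the only tested gene called in the members' 2 directions was TMPRSS11E, the nearest to UGT2B17. ODAM, on the far side, had the same 2 directions without being called higher with guide 2.

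**Figure D4:**
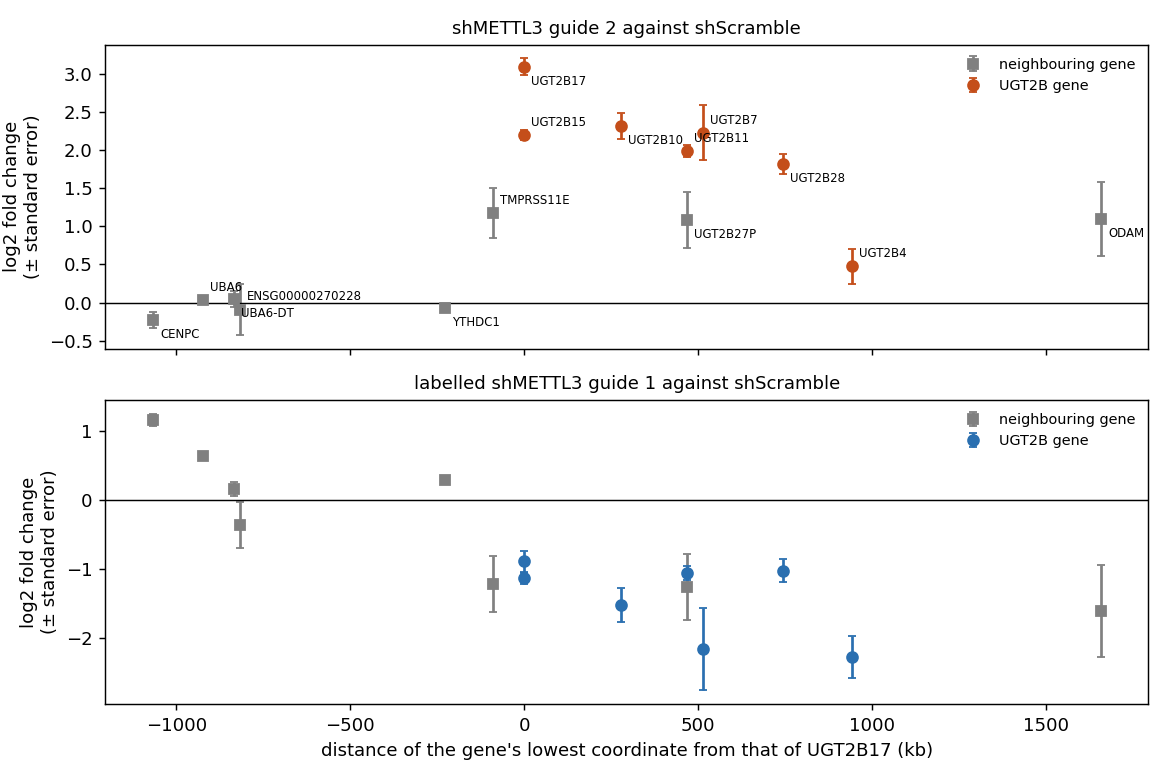
Log2 fold change against shScramble with standard errors (y axis) of the tested genes around the UGT2B cluster, by the distance of each gene's lowest coordinate from that of UGT2B17 (x axis, kb), for guide 2 (upper panel) and the libraries labelled guide 1 (lower panel). Circles are the 7 UGT2B genes and squares their neighbours. YTHDC1, UBA6, UBA6-DT and ENSG00000270228 lie near 0 with guide 2. TMPRSS11E, UGT2B27P and ODAM lie on the side of the members in both panels.

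Promoter sequence was in the RefSeq table (GRCh38.p14) for 4 of the 7 genes, UGT2B15, UGT2B11, UGT2B7 and UGT2B10, from 250 bases before to 50 after the start site. UGT2B11 and UGT2B10 were 92.57% identical over this window, and the other pairs 70.46% to 76.95%. TTTATG, the letters bound by caudal factors such as CDX2, was read on the opposite strand (as CATAAA) in 4 of 4, where 10.58% of 35116 promoters hold it on either strand. Each had a copy starting between positions -178 and -173. The stretch from -200 to -141 is printed because all 4 share this block. Capitals mark any searched motif on either strand, the others here being the TATA box letters TATAAA, the forkhead letters TGTTTAC and the receptor letters AGAACA, which run into CATAAA in some promoters.
UGT2B15 (promoter chr4:68670603-68670902, minus strand): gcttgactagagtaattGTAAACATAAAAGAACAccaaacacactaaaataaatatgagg
UGT2B11 (promoter chr4:69214699-69214998, minus strand): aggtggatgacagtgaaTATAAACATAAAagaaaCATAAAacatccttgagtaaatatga
UGT2B7 (promoter chr4:69096224-69096523, plus strand): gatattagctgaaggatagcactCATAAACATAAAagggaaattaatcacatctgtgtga
UGT2B10 (promoter chr4:68815744-68816043, plus strand): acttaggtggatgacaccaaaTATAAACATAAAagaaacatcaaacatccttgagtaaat

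The forkhead letters TGTTTAC and the steroid receptor letters AGAACA occurred in UGT2B15 only (3.42% and 14.79% of all promoters). TATAAA was in UGT2B11 and UGT2B10 (11.53% of all promoters). TGTTTGC, another forkhead form, was in none of the 4 windows (3.89% of all promoters). The window of UGT2B7 starts from a transcript that begins inside the authors' gene. In the transcripts, GGACT, a form of the m6A consensus, occurred 0.806 times per kb in UGT2B17, 0.937 in UGT2B15, 1.42 in UGT2B11, 2.15 in UGT2B28, 1.59 in UGT2B7, 1.09 in UGT2B10 and 2.38 in UGT2B4. The median of 19675 coding transcripts was 0.923 per kb. These letters are a description of the sequence, and methylation was not measured in these files.

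Genes reported to regulate UGT2B transcription were read from a list of 21, of which 20 had an identifier and 15 were tested. With guide 2 none of them was called higher and 3 were called lower by edgeR's quasi-likelihood test (8.85% and 20.4% of all tested genes). HNF4A, a hepatic nuclear receptor, had 85, 89 and 63 counts with shScramble and 3, 7 and 6 with guide 2 (log2 fold change -3.58, adjusted p = 1.8e-10). AHR, the aryl hydrocarbon receptor, fell by 2.16 on the log2 scale (adjusted p = 5.0e-10). CDX2, the intestinal caudal factor, was at 1.67 ± 0.186 CPM with shScramble and 0.827 ± 0.0853 CPM with guide 2 (SD, n = 3) and was called lower (log2 fold change -0.995). FOXA1, a forkhead pioneer factor of luminal cells, had a log2 fold change of 0.32, under 1.5-fold.

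In the libraries labelled guide 1, 3 regulators were called higher and 4 lower (21.2% and 16.5% of all tested genes). CDX2 rose to 19.5 ± 0.520 CPM (log2 fold change 3.55, adjusted p = 1.0e-19), SP1 by 0.73 and AHR by 0.62 on the log2 scale. Among those called lower, HNF4A fell by 1.03, FOXA1 by 0.99 and STAT5A by 0.89 on the log2 scale. FOXA1 went from 426 ± 16.3 CPM to 214 ± 8.98 CPM (SD, n = 3). ESR1, NR1H4, NR1I2 and FOXA2 had too few counts to be tested.

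The genes that make and carry the sugar donor, UDP-glucuronic acid, were all expressed, with 10 of 10 tested. UGDH, the dehydrogenase that makes it from UDP-glucose, stood at 119 ± 6.74 CPM with shScramble and 117 ± 2.92 CPM with guide 2 (log2 fold change -0.03, adjusted p = 0.634), and fell by 0.71 on the log2 scale with guide 1. With guide 2, 1 gene of the list was called higher and 2 lower (8.85% and 20.4% of all tested genes). UXS1, which uses UDP-glucuronic acid to make UDP-xylose, rose by 0.66. PGM1, a phosphoglucomutase, fell by 2.03 on the log2 scale, and SLC35D1, which carries UDP-glucuronic acid into the endoplasmic reticulum, fell by 1.93. With guide 1, 3 were called higher and 3 lower (21.2% and 16.5% of all tested genes). PGM1 had 86, 103 and 72 counts with shScramble, 13, 16 and 23 with guide 2, and 1431, 1414 and 1665 with guide 1 (log2 fold change 4.10). SLC35D1 had 78, 62 and 60, then 21, 14 and 8, then 996, 914 and 967 counts (log2 fold change 3.83). These 2 genes thus moved against the UGT2B genes in both groups, and HK2 rose with guide 1 by 0.75. The genes called lower with guide 1 beside UGDH were SLC35D2 (-0.97) and NUDT14 (-0.69).

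Other UDP-glycosyltransferase genes were mostly silent, and 2 of the 13 with an identifier were tested. UGT8, a ceramide galactosyltransferase on the same chromosome, rose with guide 2 by 0.78 on the log2 scale, from 48.9 ± 2.90 CPM to 84.1 ± 2.35 CPM (SD, n = 3), and fell with guide 1 by 0.77. UGT3A2 was higher with guide 1, with 7, 6 and 3 counts in shScramble and 69, 81 and 88 in guide 1 (log2 fold change 3.85). It passed the filter on low counts through the libraries labelled guide 1, so this value is a description. The UGT2A genes and the UGT1A genes of the list, which share their last exons with each other, were not tested.

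Of the genes that remove, sulphate or export steroid conjugates, 8 of 16 were tested. ABCG2, an efflux pump, was called higher in both contrasts. It had 5, 11 and 3 counts with shScramble, 8, 15 and 11 with guide 2 and 55, 42 and 51 with guide 1. The log2 fold changes were 1.11 (adjusted p = 0.035, edgeR's quasi-likelihood test) and 2.93. ABCG2 passed the filter on low counts through the libraries labelled guide 1, so the value there is a description. ABCC5 fell by 0.94 on the log2 scale with guide 2. SULT2B1 and SULT1A1, sulphotransferases, fell by 0.68 and 0.59 with guide 1. GUSB, the beta-glucuronidase that cleaves glucuronides, had log2 fold changes of 0.33 with guide 2 and 0.05 with guide 1 and was called in neither.

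Among genes of androgen supply and oxidation, 14 of 22 were tested, 2 were called higher and 4 lower with guide 2 (8.85% and 20.4% of all tested genes), and 2 higher and 2 lower with guide 1 (21.2% and 16.5%). HSD3B1, which makes androgen precursors, had 0, 0 and 1 counts with shScramble and 17, 21 and 13 with guide 2. That is a ratio of 62.2 (95% exact counting interval 10.7 to 2504). It had 2, 2 and 0 counts with guide 1. HSD3B1 passed the filter on low counts through the guide 2 libraries, so it stands among the 2 called higher there as a description. HSD17B3, which makes testosterone, fell in both, by 2.50 and 1.77 on the log2 scale. With guide 2, HSD17B14 fell by 1.51, SRD5A2 by 1.48 and RDH5 by 1.31 on the log2 scale. SRD5A1, the 5α-reductase with 41.98 ± 0.954 CPM in shScramble, had log2 fold changes of 0.26 and -0.25. RDH16 was called higher with guide 2 (0.76) and lower with guide 1 (-0.73). HSD17B6 and HSD17B11, which oxidise 3α- and 17β-hydroxysteroids, rose with guide 1 by 1.94 and 0.95. AKR1C3 and HSD17B2 were not tested for want of counts.

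Over the 5 lists, 15 of 49 tested genes were called with guide 2 (29.3% of all tested genes), 22 with guide 1 (37.7%) and 22 between the guides (47.3%). The lists held genes called in either direction in each contrast. There were 5 higher and 10 lower with guide 2, and 10 higher and 12 lower with guide 1. Among the genes called higher, HSD3B1 passed the filter on low counts through guide 2, and UGT3A2 and ABCG2 through guide 1. The UGT2B genes stood beside pathway genes of either direction, as the plot of the lists shows.

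**Figure D5:**
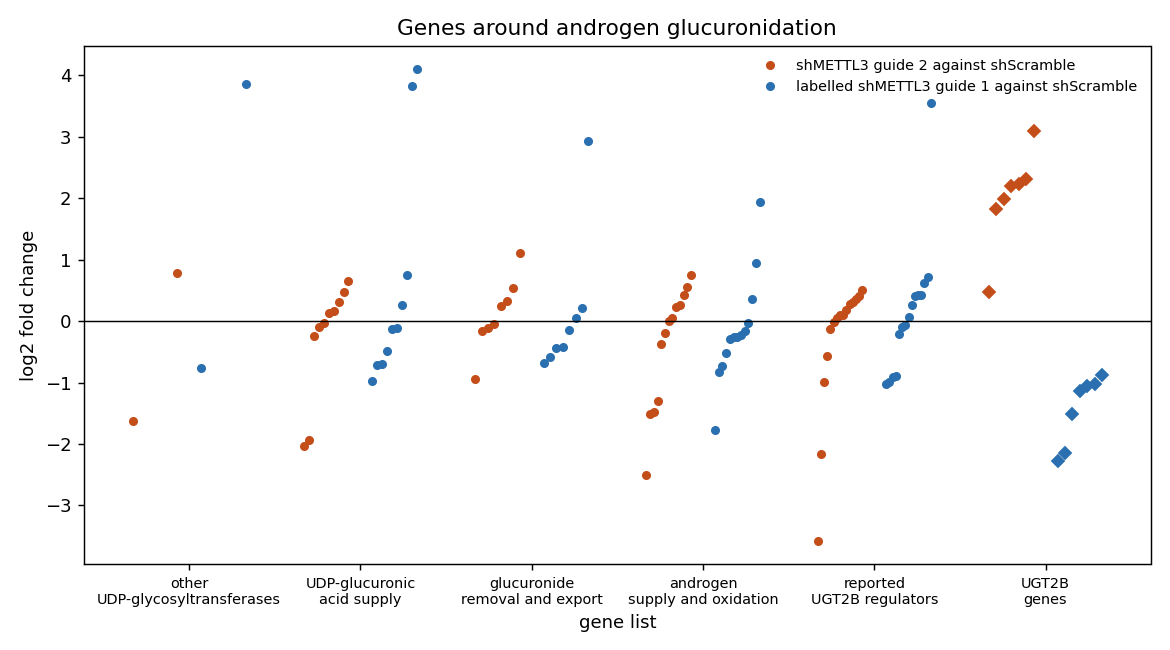
Log2 fold change against shScramble (y axis) of the tested genes of 5 lists and of the 7 UGT2B genes (x axis), for guide 2 and for the libraries labelled guide 1, 1 point per gene. HSD3B1 is left out because shScramble held 1 count of it. Each list has points on both sides of 0, and the UGT2B genes are above 0 with guide 2 and below it with guide 1.

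The genes whose levels ran most like UGT2B17 were found by Pearson's r of log2 CPM over the 9 libraries, among 15423 tested genes that averaged 1 CPM or more. That number includes UGT2B genes, which were left out of the 5 named below. The 9 libraries fall into 3 groups and the value mainly reflects the group means. The 5 highest were DDX46 (r = 0.998), PPIAP22 (0.995), TK1 (0.995), PAPSS1 (0.995) and SETD7 (0.994). Pearson's r does not depend on the size of a change. With guide 2 the log2 fold changes of these 5 genes were 0.44, 1.21, 1.36, 0.72 and 0.25, against 3.09 for UGT2B17. With guide 1 they were -0.14, -0.26, -0.41, -0.30 and -0.08, against -0.88. UGT2B15 had r = 0.991, with 37 of all 19278 tested genes above it, UGT2B17 itself counted among them. UGT2B11 had 0.987, UGT2B28 0.984, UGT2B10 0.969, UGT2B7 0.933 and UGT2B4 0.765.

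The labelled cell type was checked by marker lists. All 12 prostate luminal markers, KLK3 and HOXB13 among them, were above 1 CPM in every library. Their summed level was 3120 to 3231 CPM with shScramble, 3243 to 3445 CPM with guide 2 and 1651 to 1727 CPM in the libraries labelled guide 1, so it was lower in the group in which the UGT2B genes were lower. Since UGT2B genes are also liver and gut genes, markers of those tissues were read. The 12 hepatocyte markers summed to 13.6 to 14.98, 11.7 to 14.8 and 39.3 to 44.4 CPM in the same order, mostly CPS1, with APOB and FGB at 0 in all libraries. The sum hides members that moved otherwise. Of 8 tested, 2 were called higher and 1 lower with guide 2 (8.85% and 20.4% of all tested genes). With guide 1, 2 were called higher and 5 lower (21.2% and 16.5% of all tested genes). ALB (albumin) had 25, 27 and 10 counts with shScramble, 35, 37 and 37 with guide 2, and 7, 12 and 12 with guide 1, with log2 fold changes of 1.11 and -0.98. TTR (transthyretin) had 11, 6 and 2, then 11, 13 and 13, then 1, 0 and 1 counts, and was also called higher and then lower. It passed the filter through guide 2. SERPINA1 was called lower in both, with 67, 71 and 45, then 9, 14 and 8, then 35, 26 and 27 counts (log2 fold changes -2.26 and -1.06). With guide 1, TF and CPS1 were called higher (2.06 and 2.15), TF having passed the filter through that group. APOA1 and HP were called lower there (-1.12 and -0.89). The 8 enterocyte markers summed to 1.42 to 1.54, 6.16 to 6.86 and 1.69 to 2.04 CPM. ALPI was at 0 and FABP1, FABP2 and APOA4 at no more than 1 count. SI (sucrase-isomaltase, log2 fold changes 2.62 and -1.36) was most of the sum with shScramble and guide 2. MTTP was the largest part with guide 1 and moved the other way (log2 fold changes -2.40 and 2.13). It had 9, 7 and 5, then 0, 1 and 2, then 34, 23 and 37 counts, and passed the filter through guide 1. The 10 fibroblast and immune markers summed to 44.02 to 47.3, 37.5 to 40.7 and 19.9 to 26.7 CPM, mostly COL1A1, with DCN and CD3E at 0, and PDGFRB was called higher with guide 2 and lower with guide 1. The part of these marker levels in the UGT2B differences was not tested. In bulk RNA, fewer cells that express a gene and less of its RNA per cell cannot be told apart.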

How the data were processed

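RNA-seq was carried out on 9 libraries of LNCaP:C4-2 cells, grouped by sample title. The RNA extraction kit in the labels is not the one in the study's RNA methods. Per the labels and methods, reads were trimmed with Trim Galore (cutadapt, FastQC), aligned to GRCh38 with STAR and assigned to Ensembl genes with featureCounts, and the authors deposited raw counts per gene for every library, without normalization or pooling. Software versions, the strand setting and the treatment of multi-mapping reads are not given in the sources used here. Of 60675 genes, 56558 (93.2%) were given a symbol. Gene coordinates are those of the files.

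Counts were scaled by TMM and filtered with filterByExpr (minimum count 10, minimum total 15), leaving 19278 genes. edgeR 4.0.16 (R 4.3.3) was used to fit its quasi-likelihood F test with robust estimation to all 9 libraries, with no covariates, and p-values were adjusted over all tested genes by Benjamini-Hochberg. A gene was called at adjusted p under 0.05 and at least 1.5-fold. Confidence intervals are at 95% and standard errors are of the log2 fold change. The counting interval is exact (Clopper-Pearson) and covers counting error only. The depth of 21899501 to 30897639 counts left the lowest members with 1 to 56 counts in a library. Replicate libraries differed by more than sampling noise (chi-square per gene 3.67 to 9.67), so none was counted as a duplicate. DESeq2 1.42.0 and other filters, scalings and left-out libraries were tried as alternatives.

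The 7 genes and all lists were chosen with earlier results of these data known. All 7 genes are given in full. Of the lists, called genes are named, with values for those of the largest change, and a few genes that were not called (UGDH, GUSB, SRD5A1 and FOXA1 with guide 2) were named after their values were seen. Neighbouring genes with 10 or more counts in some library and the 5 genes most like UGT2B17 are also named. A few genes that enter the list counts are not reported here by name. Coding sequences come from GENCODE transcripts (aligned with MAFFT 7.526) and promoters from RefSeq (GRCh38.p14).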

Additional observations from a re-analysis of the deposited data

Results flagged for a closer look

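The values below are log2 differences of guide 2 from the libraries labelled guide 1, for genes that differed from shScramble in opposite directions in the 2 groups. For the UGT2B genes the difference was not tested, because guide 2 chose them: it was 3.98 for UGT2B17, 3.33 for UGT2B15, 3.04 for UGT2B11, 2.84 for UGT2B28, 4.38 for UGT2B7, 3.83 for UGT2B10 and 2.75 for UGT2B4. UGT2B4 with guide 2 overlapped shScramble and passed neither the fold limit nor the separation that the other 6 showed.

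Of the 49 pathway genes tested, 6 were called in opposite directions. The share of all tested genes called so was not worked out, so nothing is read from that count. Their difference was tested by the quasi-likelihood F test in edgeR, Benjamini-Hochberg adjusted. The choice of these genes required that difference to be called, so the p-values are a description and no separate support. UGT8 and RDH16 were higher with guide 2 than with guide 1, by 1.55 (adjusted p = 2.0e-19) and 1.48 (adjusted p = 5.6e-06), as the UGT2B genes were. The others ran the opposite way. The log2 difference was -6.13 for PGM1 (adjusted p = 7.1e-25), -5.76 for SLC35D1 (adjusted p = 1.4e-22), -4.55 for CDX2 (adjusted p = 8.2e-21) and -2.78 for AHR (adjusted p = 2.3e-13). For each of these 6 genes, the 3 libraries of either guide group lay apart from the 3 shScramble libraries, which follows largely from the choice by calls.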

How the results depend on the processing

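Of 228 values recomputed under the alternatives, 225 kept their direction and their side of the threshold, or stayed within their limits, and none reversed. Calling pathway genes by the adjusted p alone, without the 1.5-fold limit, gave 33 in place of 15 with guide 2, 37 in place of 22 with guide 1 and 40 in place of 22 between the guides. With single libraries left out, there were 14 to 17, 20 to 23 and 22 to 24 of these genes, 7 to 7 UGT2B genes called with guide 1, and 6 to 7 past 1.5-fold with guide 2. UGT2B4 was the seventh, without guide 2 replicate 2 (log2 fold change 0.67). UGT2B17 lay between 2.93 and 3.21 with guide 2 and between -1.06 and -0.73 with guide 1, and the summed log2 ratios between 2.15 and 2.32 and between -1.21 and -1.04. UGT2B7 with guide 1 ranged from -2.57 to -1.59. It lay beyond UGT2B4 (-2.29, -2.15 and -2.15) without shScramble replicate 2, guide 1 replicate 2 or guide 1 replicate 3.

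Where UGT2B7 was filtered out (a minimum mean of 1 CPM, or only the 6 libraries compared), 6 UGT2B genes were called with guide 1, and the first of these left 5 past 1.5-fold with guide 2. Scaling by library size alone moved the median of all genes with guide 2 from -0.04 to -0.19 and the share of calls that were higher from 30.2% to 17.2%. Under it UGT2B17 stood at 2.94 and UGT2B4 at 0.33. Deviations of same-numbered libraries from their group means had r between -0.10 and 0.05 over the 3 pairs of groups, so the numbers were not used as a pairing. With the replicate number as a block, 7 UGT2B genes were called with guide 1, 6 were past 1.5-fold with guide 2, UGT2B17 had log2 fold changes of 3.10 and -0.88, and 15, 22 and 22 pathway genes were called. Depth limits UGT2B7 and UGT2B4 most, with 8 and 31 counts over the libraries labelled guide 1.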
